A study of Mus musculus with 6 samples.

Results

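The osteoclast is the multinucleated cell that dissolves bone, and 10 genes of its receptors, its master regulator and its resorbing machinery are described here in giant cells induced through TLR2. They are Tnfrsf11a, Calcr, Oscar, Nfatc1, Acp5, Ctsk, Car2, Tcirg1, Clcn7 and Ostm1. They were chosen by name for their role in osteoclasts, by a rule that uses no measured value but with earlier results of these data known, among the 22180 genes that at least 1 probe set of the arrays names alone. All 10 were measured, 9 of them by 1 probe set. Ostm1 had 2, of which the brighter over the 6 arrays was kept.

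RNA of sorted mouse cells was measured on 6 Affymetrix arrays, 2 in each of 3 groups. All groups started from bone marrow of C57Bl/6 mice grown for 5 days in 20 ng/ml M-CSF, the factor that turns monocyte precursors into macrophages. In the FSL-1 + nutlin-3a group these macrophages were then kept for 6 days in 20 ng/ml FSL-1 and 10 µM nutlin-3a. In the FSL-1 group they were kept as long in 20 ng/ml FSL-1, and in the M-CSF group in 50 ng/ml M-CSF. FSL-1 is a synthetic lipopeptide that activates TLR2 together with TLR6, and the cells under it are called multinucleated giant cells in the series design. Nutlin-3a keeps Mdm2 from binding p53 and so raises active p53. The labels do not say whether M-CSF stayed in the medium with FSL-1, so the addition of FSL-1 and a change in M-CSF cannot be told apart. They name no RANKL and no culture of osteoclasts, and how the cells were gated in the sort is not stated. Replicates are not said to be separate cultures or mice, so a p-value here covers only the spread between these arrays, which may be a technical one.

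Osteoclasts form when RANKL binds its receptor RANK, the product of Tnfrsf11a, on macrophage precursors that also receive M-CSF. TRAF6, NF-κB and c-Fos together with calcium signals from immune adaptors, one of whose receptors is OSCAR, then switch on NFATc1, which amplifies its own gene and drives Acp5, Ctsk, Calcr and Oscar. The mature cell seals off a patch of bone. Carbonic anhydrase II supplies protons, a vacuolar proton pump with the Tcirg1 subunit drives them out, the ClC-7 exchanger with its partner OSTM1 moves chloride, and cathepsin K and TRAP (Acp5) act on the matrix. Calcitonin acts through CALCR to stop resorption.

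The values are log2 levels, so a difference of 1 is a doubling, and a gene was called where its limma adjusted p over all 22180 genes was under 0.05. The median level was 5.51 over all genes and 4.25 over probe sets that name no gene. Replicates correlated at 0.9929 to 0.9951 across genes, and arrays of different groups at 0.9788 to 0.9858. All 7 of 7 macrophage markers lay above 4.25 on every array, and their mean level per array was 11.03 to 11.11 in FSL-1 + nutlin-3a, 11.38 to 11.50 in FSL-1 and 11.18 to 11.27 in M-CSF. The mean levels of 5 marker lists of other cells (osteoblasts and stroma, erythroid cells, neutrophils, dendritic cells and lymphocytes) lay between 4.68 and 5.60 on all 6 arrays. In that order, 8 of 13, 4 of 5, 7 of 10, 6 of 7 and 4 of 9 genes lay above 4.25 on every array. Single genes stood higher, such as Cd4 (9.51 to 10.75), Cd209a (8.69 to 9.17), Mmp8 (5.86 to 8.55) and Col1a1 (6.46 to 7.43). These were bulk samples, so fewer cells of a type and less RNA per cell cannot be told apart. With 2 arrays a group, precision is limited throughout.

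FSL-1 compared with M-CSF asks which osteoclast genes differ between the giant cells and macrophages. Acp5, the gene of the acid phosphatase TRAP, and Ctsk, the gene of cathepsin K, were 5.60-fold and 3.98-fold higher under FSL-1. The receptors, Nfatc1 and the genes of acid secretion were not called. Of the 10 genes, 2 rose and 0 fell, beside 6.86% of all genes called, 3.91% that rose and 2.95% that fell. At an unadjusted p under 0.05 the counts were 3 and 1, and limma with trend and robust moderation of the variance also called 3 and 1. Of all 22180 genes, 2376 rose and 2336 fell at that unadjusted p, and 1476 and 1268 with that moderation. The median change of the 10 genes was 0.02, against -0.01 for all genes. The groups did not overlap for 7 of the 10 genes, beside 50.2% of all genes.

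**Figure D1:**
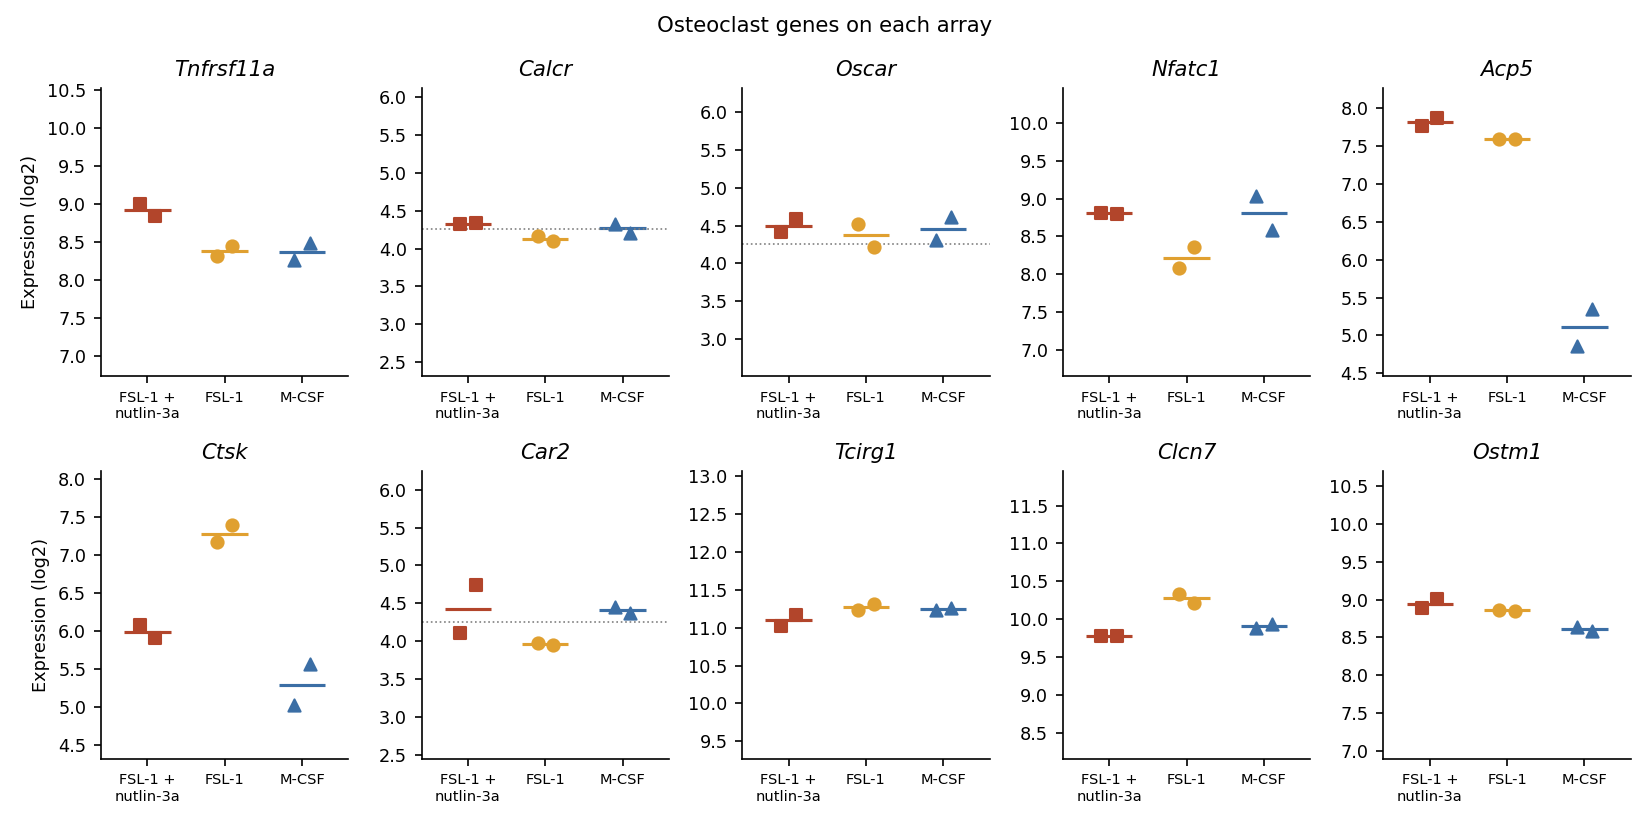
Log2 level (vertical axis) of each of the 10 genes on every array, with 1 panel per gene; points are arrays, short bars are group means, the dotted line is the median of probe sets that name no gene, and the groups run FSL-1 + nutlin-3a, FSL-1 and M-CSF. Acp5 stands high in both FSL-1 groups, Ctsk is highest with FSL-1 alone, and Calcr, Oscar and Car2 stay at 3.95 to 4.74 on all arrays.

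Tnfrsf11a, the receptor for RANKL, had levels of 9.0 and 8.85 in FSL-1 + nutlin-3a, 8.31 and 8.44 in FSL-1, and 8.25 and 8.48 in M-CSF. The FSL-1 and M-CSF arrays overlapped, well above the median gene. The difference of FSL-1 minus M-CSF was 0.00 (95% interval -0.30 to 0.31, adjusted p = 0.993).

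Calcr, the calcitonin receptor, had levels of 4.32 and 4.34 in FSL-1 + nutlin-3a, 4.17 and 4.09 in FSL-1, and 4.32 and 4.21 in M-CSF. All 6 arrays lay near the median of probe sets that name no gene. Oscar, a collagen receptor that signals through an immune adaptor, had levels of 4.42 and 4.58 in FSL-1 + nutlin-3a, 4.52 and 4.22 in FSL-1, and 4.31 and 4.61 in M-CSF. Its 3 groups overlapped near that same low level. The differences of FSL-1 minus M-CSF were -0.13 for Calcr (adjusted p = 0.586) and -0.09 for Oscar (adjusted p = 0.83).

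Nfatc1, the transcription factor at the head of the osteoclast programme, had levels of 8.81 and 8.80 in FSL-1 + nutlin-3a, 8.08 and 8.36 in FSL-1, and 9.03 and 8.59 in M-CSF. Both FSL-1 arrays lay below both M-CSF arrays. The difference was -0.59 (SE 0.171, 95% interval -0.99 to -0.20, adjusted p = 0.0879) and was not called. It was called in only 2 of 15 alternative settings, with trend and robust moderation (adjusted p = 0.0182) and without M-CSF replicate 2 (-0.81). The difference was -0.37 without M-CSF replicate 1 and -0.45 without FSL-1 replicate 1.

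Acp5 encodes TRAP, the acid phosphatase by which osteoclasts are stained. Its levels were 7.76 and 7.87 in FSL-1 + nutlin-3a, 7.59 and 7.59 in FSL-1, and 4.86 and 5.35 in M-CSF. Every array with FSL-1 lay more than 2 log2 units above either M-CSF array. The mean was 7.59 ± 0.0033 in FSL-1 and 5.11 ± 0.35 in M-CSF (SD, n = 2 each), and the change was 2.49 (SE 0.168, limma adjusted p = 0.00017). Acp5 was called in all 15 alternative settings run, with changes of 2.24 to 2.73.

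Ctsk encodes cathepsin K, the protease that cleaves bone collagen. Its levels were 6.07 and 5.90 in FSL-1 + nutlin-3a, 7.17 and 7.40 in FSL-1, and 5.02 and 5.56 in M-CSF. The 3 groups did not overlap, with the FSL-1 + nutlin-3a arrays between the others and nearer to M-CSF. The change of FSL-1 minus M-CSF was 1.99 (SE 0.189, limma adjusted p = 0.000932), and it was called in all 15 alternative settings.

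The promoters of Acp5 and Ctsk are printed because both genes rose with FSL-1, while with nutlin-3a only Ctsk fell and Acp5 was not called. Each window runs from 250 bases before to 50 bases from an annotated start of the gene, 5′ to 3′ on the gene's strand, from RefSeq on build GRCm38.p6. Windows were found for 8 of the 10 genes, all but Nfatc1 and Car2. For genes with several, the window with the most matches is shown. Capitals mark matches, on either strand, to letters bound by osteoclast factors: GGAAA (NFAT core), TGANTCA (AP-1), GAGGAA (PU.1), CACGTG (E-box) and CATGTG (M-box core, bound by MITF). PU.1 and NFAT letters may overlap.
Acp5, chr9:22130549-22130848, minus strand: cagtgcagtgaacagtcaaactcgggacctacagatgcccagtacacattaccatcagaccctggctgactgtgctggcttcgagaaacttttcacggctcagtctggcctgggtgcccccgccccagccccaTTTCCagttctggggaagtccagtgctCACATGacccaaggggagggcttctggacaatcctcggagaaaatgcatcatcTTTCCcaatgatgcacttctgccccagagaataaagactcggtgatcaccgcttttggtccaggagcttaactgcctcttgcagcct
Ctsk, chr3:95498960-95499259, plus strand: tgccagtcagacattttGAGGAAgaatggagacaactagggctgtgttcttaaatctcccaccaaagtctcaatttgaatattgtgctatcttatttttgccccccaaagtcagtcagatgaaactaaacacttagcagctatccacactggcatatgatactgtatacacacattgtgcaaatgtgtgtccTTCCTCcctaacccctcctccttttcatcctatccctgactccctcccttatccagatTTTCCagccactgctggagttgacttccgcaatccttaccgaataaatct
The Acp5 window held the NFAT core at positions -117 and -37 and the M-box core at -90, counted from the start. The Ctsk window held PU.1 letters at -233 and -58 and an NFAT core at position 1, and no M-box core. Among all 32851 windows of this length 61.3% held the NFAT core, 28.3% the PU.1 letters and 14.2% the M-box core. At least 2 NFAT cores were in 26.7% and at least 2 PU.1 matches in 4.82%. The Acp5 window was picked as the richest of several, and no other Acp5 window held the M-box core. Shares of single windows therefore do not measure how rare its matches are. AP-1 letters, held by 7.81% of all windows, were in none of the windows of the 8 genes. A match describes the letters only and shows no binding.

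Car2, the cytosolic carbonic anhydrase II, had levels of 4.10 and 4.74 in FSL-1 + nutlin-3a, 3.97 and 3.95 in FSL-1, and 4.44 and 4.38 in M-CSF. It lay near the level of probe sets that name no gene on all arrays, lowest in FSL-1, and FSL-1 minus M-CSF was -0.45 (adjusted p = 0.237). Tcirg1, the pump subunit that places the proton pump at the ruffled border, had levels of 11.02 and 11.17 in FSL-1 + nutlin-3a, 11.23 and 11.32 in FSL-1, and 11.23 and 11.25 in M-CSF. It was high in every group, and FSL-1 minus M-CSF was 0.03 (95% interval -0.24 to 0.30, adjusted p = 0.927).

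Clcn7, the chloride and proton exchanger of lysosomes and the ruffled border, had levels of 9.78 and 9.77 in FSL-1 + nutlin-3a, 10.34 and 10.21 in FSL-1, and 9.88 and 9.94 in M-CSF. Both FSL-1 arrays lay above the others. FSL-1 minus M-CSF was 0.37 (SE 0.114, adjusted p = 0.106), and it was called only with trend and robust moderation (adjusted p = 0.0112) among the 15 alternatives. Ostm1, the subunit that ClC-7 needs for its stability, had levels of 8.89 and 9.01 in FSL-1 + nutlin-3a, 8.86 and 8.85 in FSL-1, and 8.64 and 8.58 in M-CSF. Both FSL-1 arrays lay above both M-CSF arrays, and the difference was 0.25 (adjusted p = 0.268). Its dimmer probe set differed by -0.11.

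Around the 10 genes, 108 further osteoclast genes were measured in 9 groups by role. With FSL-1, 20 of them rose, 7 fell and 81 were not called, beside 3.91% of all genes that rose and 2.95% that fell. The same shares stand beside the counts of each list below. The median change of the 108 genes was 0.08, against -0.01 for all genes. All these lists were chosen with earlier results of these data known, and their counts are described without a test. The matrix proteases rose in 5 of 9 and fell in 0 (6 and 0 at an unadjusted p under 0.05 and also with trend and robust moderation), with a median change of 0.74. Mmp14, a membrane-bound collagenase, had levels of 10.40 and 10.64 in FSL-1 against 5.57 and 5.69 in M-CSF, a change of 4.89 (adjusted p = 3.76e-06). Mmp9, a gelatinase abundant in osteoclasts, had 7.53 and 7.34 in FSL-1 against 5.07 and 5.21 in M-CSF, a change of 2.30 (adjusted p = 9.03e-05). The collagenase Mmp13 rose by 2.13 (adjusted p = 0.000128) and the lysosomal protease Ctsl by 0.74 (adjusted p = 0.00957). Of 10 neutrophil markers 2 rose with FSL-1, Cxcr2 and the collagenase Mmp8, while 4 of the 10 differed downwards and 2 of these had an unadjusted p under 0.05. The mean level of the list was 4.99 to 5.05 in FSL-1 against 4.68 to 4.82 in M-CSF. Without Mmp8, left out after its values were seen, the mean of the other 9 was 4.68 and 4.60 in FSL-1 against 4.53 and 4.71 in M-CSF, and the groups overlapped.

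In the RANKL and M-CSF axis 1 of 8 genes rose and 2 fell (2 and 2 at an unadjusted p under 0.05). Csf1, which encodes M-CSF itself, had levels of 9.72 and 9.72 in FSL-1 against 6.51 and 6.89 in M-CSF, a change of 3.02 (adjusted p = 3.05e-05). The receptor for M-CSF, Csf1r, fell by 0.87 (adjusted p = 0.00858), and Traf6, the adaptor that relays the RANK signal, fell by 0.71 (adjusted p = 0.0187). Tnfsf11, which encodes RANKL, had levels of 4.26 and 4.31 in FSL-1 against 4.31 and 4.33 in M-CSF. Its arrays lay near the level of probe sets that name no gene (difference -0.03, adjusted p = 0.938).

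Of 16 osteoclast transcription factors 3 rose and 1 fell (6 and 2 at an unadjusted p under 0.05, 6 and 1 with trend and robust moderation), with a median change of 0.10. Fos, whose product acts upstream of NFATc1, rose by 1.20 (adjusted p = 0.0149), its family member Fosl2 by 0.76 (adjusted p = 0.0113) and Bhlhe40 by 0.72 (adjusted p = 0.0123). Pparg, the lipid-sensing nuclear receptor, fell by 1.13 (adjusted p = 0.00206). Values were -0.23 for Mitf (adjusted p = 0.519), which drives Acp5 and Ctsk in osteoclasts, and -0.31 for Prdm1 (adjusted p = 0.426), which silences repressors of the programme.

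Of 8 repressors of osteoclast formation 4 rose and 0 fell (4 and 1 at an unadjusted p under 0.05 and also with trend and robust moderation), with a median change of 0.43. Tnfaip3, the A20 protein that restrains NF-κB, rose by 1.4 (adjusted p = 0.000505). Id2, a blocker of helix-loop-helix factors, rose by 1.04 (adjusted p = 0.0063), and Rbpj, the nuclear partner of Notch, also by 1.04 (adjusted p = 0.0117). Irf8, which holds back Nfatc1, differed by -0.50 (adjusted p = 0.109). None of 13 ITAM and calcium signalling genes was called by limma, against 0 higher and 3 lower at an unadjusted p under 0.05 and 0 and 2 with trend and robust moderation.

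Among 16 subunits of the proton pump 2 rose and 0 fell (5 and 1 at an unadjusted p under 0.05, 4 and 1 with trend and robust moderation). Atp6v0d2, the d2 subunit that osteoclasts make in large amounts, had levels of 11.11 and 11.23 in FSL-1 against 10.37 and 10.23 in M-CSF, a change of 0.86 (adjusted p = 0.00916). Atp6v1h, a regulatory subunit of the cytosolic part, rose by 0.68 (adjusted p = 0.0148). Of 12 genes of ion transport and ruffled border traffic 2 rose and 2 fell (4 and 3 at an unadjusted p under 0.05, 4 and 2 with trend and robust moderation). Slc9b2, a sodium and proton exchanger also known as NHA2 and abundant in osteoclasts, had levels of 8.13 and 7.83 in FSL-1 against 5.71 and 6.07 in M-CSF, a change of 2.09 (adjusted p = 0.000464). Slc37a2, a sugar phosphate transporter, rose by 0.58 (adjusted p = 0.0214), and Slc4a2, the bicarbonate exchanger of the osteoclast's basal membrane, fell by 0.51 (adjusted p = 0.0315).

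Of 17 adhesion and sealing zone genes 3 rose and 2 fell (5 and 5 at an unadjusted p under 0.05 and with trend and robust moderation), with a median change of -0.06. Cttn, the actin-binding protein cortactin, rose by 1.26 (adjusted p = 0.00148), and the kinase gene Src, needed for the ruffled border, by 1.1 (adjusted p = 0.0103). Itgb3, the integrin chain that attaches osteoclasts to bone, fell by 0.64 (adjusted p = 0.0389). None of the 9 cell fusion genes was called by limma, against 1 higher and 2 lower at an unadjusted p under 0.05 and with trend and robust moderation. Dcstamp, the fusion receptor DC-STAMP, had levels of 5.70 and 5.24 in FSL-1 against 5.20 and 5.52 in M-CSF, a difference of 0.11 (adjusted p = 0.813). Ocstamp had 5.66 and 5.41 in FSL-1 against 5.36 and 5.65 in M-CSF, a difference of 0.03 (adjusted p = 0.946). Both genes lay near the median level of all genes, and whether their signal exceeded background is unknown.

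**Figure D2:**
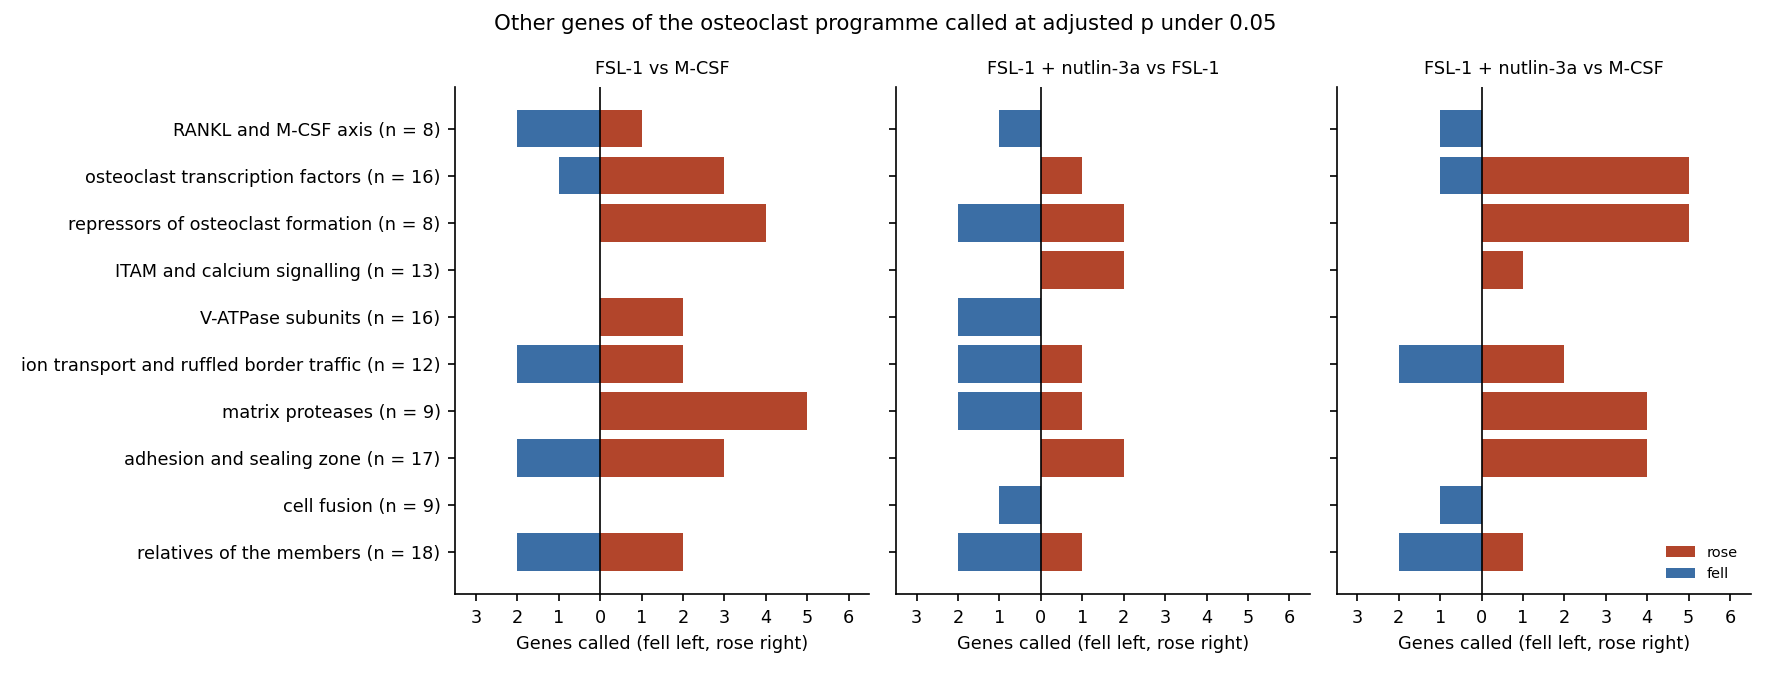
Number of genes (horizontal axis) that rose or fell in each group of osteoclast genes, with 1 panel per comparison. The matrix proteases have 5 risers of 9 with FSL-1 against M-CSF, while the ITAM and calcium signalling genes and the cell fusion genes have 0 called in that panel.

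Relatives of the 10 genes were measured as well, 18 in all, of which 2 rose and 2 fell. Car13, another cytosolic carbonic anhydrase, had levels of 9.86 and 9.81 in FSL-1 against 8.87 and 9.01 in M-CSF, a change of 0.89 (adjusted p = 0.00412). Calcrl, the receptor related to CALCR that binds adrenomedullin and CGRP, rose by 0.69 (adjusted p = 0.0258), while Ramp1, which directs it towards CGRP, fell by 0.78 (adjusted p = 0.034). Nfatc2 had levels of 6.91 and 7.15 in FSL-1 against 8.01 and 7.66 in M-CSF and fell by 0.81 (adjusted p = 0.0209). Nfatc3 differed by -0.18 (adjusted p = 0.437).

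Of the 26 calls named among these further genes and relatives, 9 held without each of the 6 arrays in turn: Csf1, Pparg, Tnfaip3, Slc9b2, Mmp9, Mmp13, Mmp14, Cttn and Car13. The other 17 were lost without some array, none with a change of sign. Without FSL-1 replicate 1 there were 16 lost (adjusted p up to 0.178), without FSL-1 replicate 2 also 16 (up to 0.198), without M-CSF replicate 1 there were 12 (up to 0.177) and without M-CSF replicate 2 there were 7 (up to 0.137). Without either FSL-1 + nutlin-3a array, which leaves the same fit as the compared groups alone, Itgb3 (adjusted p = 0.0559) and Slc4a2 (0.0501) were lost.

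FSL-1 + nutlin-3a compared with FSL-1 asks which osteoclast genes differ between FSL-1 cultures with and without nutlin-3a. Ctsk was 2.46-fold lower and Clcn7 1.41-fold lower with nutlin-3a, while Acp5 was not called. Of the 10 genes, 0 rose and 2 fell, beside 6.5% of all genes called, 2.38% that rose and 4.12% that fell. At an unadjusted p under 0.05 the counts were 3 and 2, and with trend and robust moderation 2 and 2. Of all 22180 genes, 2305 rose and 2406 fell at that unadjusted p, and 1090 and 1568 with that moderation. The groups did not overlap for 9 of the 10 genes, beside 50.9% of all genes, and the median change was 0.16, against 0.02 for all genes. The FSL-1 arrays enter this comparison and the one before, so the values are not independent of each other.

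The Ctsk levels given above were lower in both FSL-1 + nutlin-3a arrays than in either FSL-1 array, and the change was -1.30 (SE 0.189, limma adjusted p = 0.00798). It was called in 13 of 15 alternative settings. It was lost without FSL-1 replicate 2 (-1.18, adjusted p = 0.0733) and without FSL-1 + nutlin-3a replicate 2 (-1.21, adjusted p = 0.0565). Acp5 lay higher in both FSL-1 + nutlin-3a arrays than in either FSL-1 array, by 0.22 (95% interval -0.17 to 0.61, adjusted p = 0.515). On each array the Acp5 value minus the Ctsk value, which removes a factor common to both genes on that array, was 1.69 and 1.97 in FSL-1 + nutlin-3a, 0.42 and 0.19 in FSL-1, and -0.16 and -0.21 in M-CSF. The groups did not overlap in this difference, which was not tested. It restates the levels given above, for genes chosen with earlier results of these data known, and is no separate support.

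Clcn7 was lower in both FSL-1 + nutlin-3a arrays than on any other array, and fell by 0.50 (SE 0.114, limma adjusted p = 0.0429). The call was kept in 5 of 15 alternative settings. It was lost without any 1 of the 6 arrays (changes of -0.56 to -0.44, adjusted p of 0.0619 to 0.232), on a repeat of the quantile normalization (adjusted p = 0.0522) and with the 2 compared groups alone (adjusted p = 0.0619). Its promoter window is printed because it held the E-box CACGTG, bound by MITF and the lysosomal regulator TFEB, at positions -15 and 8. At least 2 E-boxes were in 0.594% of all windows and at least 1 in 7.15%. The other Clcn7 window held no E-box. As the window was picked for this match among the windows of 8 genes, the shares do not measure how rare the match is. The capitals mark the same letters as above, here the E-boxes and an NFAT core at -213.
Clcn7, chr17:25133141-25133440, plus strand: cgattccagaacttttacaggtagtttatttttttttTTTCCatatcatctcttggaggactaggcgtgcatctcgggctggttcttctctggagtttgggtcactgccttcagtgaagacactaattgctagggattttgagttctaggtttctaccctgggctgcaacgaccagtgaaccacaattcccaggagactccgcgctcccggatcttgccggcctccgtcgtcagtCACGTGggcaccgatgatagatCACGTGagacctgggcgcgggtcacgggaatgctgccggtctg
Its GC content was 52.7%, equal to the median of all windows, against 54.7% for the Acp5 window and 43.7% for the Ctsk window.

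Tnfrsf11a and Nfatc1, upstream in the programme, were not called with nutlin-3a. Tnfrsf11a lay above both FSL-1 arrays on both FSL-1 + nutlin-3a arrays, by 0.55 (SE 0.133, 95% interval 0.24 to 0.86, adjusted p = 0.0516). It was called in 4 of 15 alternatives, with trend and robust moderation (adjusted p = 0.00762), quantile normalization once more (0.0456), dim genes filtered out (0.0292) and array weights (0.0445). Nfatc1 likewise lay above both FSL-1 arrays, by 0.58 (SE 0.171, adjusted p = 0.0925), and was called with trend and robust moderation (adjusted p = 0.0201). Differences of the others were 0.20 for Calcr (adjusted p = 0.375), 0.13 for Oscar (0.719), -0.18 for Tcirg1 (0.448) and 0.09 for Ostm1 (0.72). Car2 differed by 0.46 (adjusted p = 0.226), with FSL-1 + nutlin-3a replicate 2 the highest array, and without FSL-1 + nutlin-3a replicate 1 it was called (0.78, adjusted p = 0.0432).

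**Figure D3:**
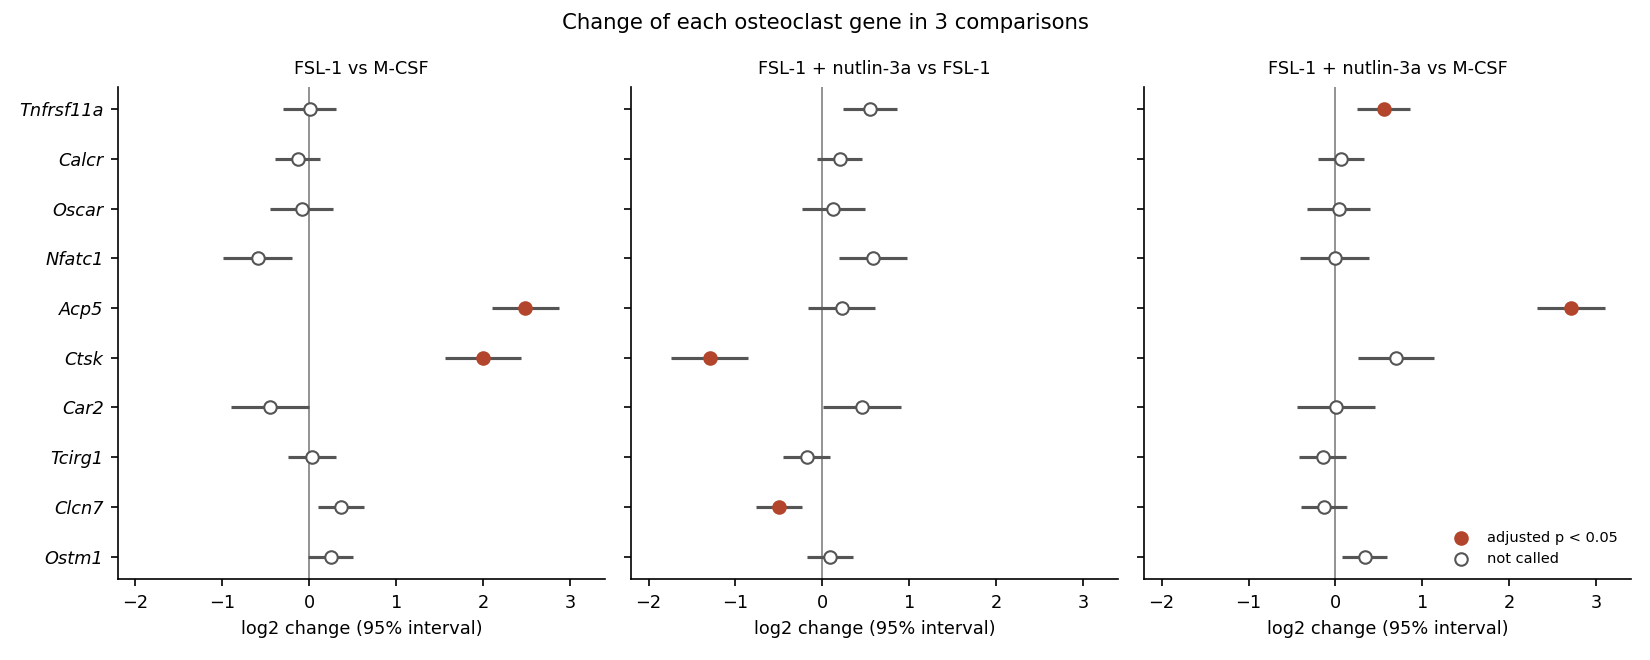
Log2 change with its 95% interval (horizontal axis) of each of the 10 genes in the 3 comparisons; filled points were called. Acp5 and Ctsk lie to the right with FSL-1 against M-CSF, and Ctsk and Clcn7 are the called genes to the left with nutlin-3a against FSL-1.

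Of the 108 further genes 9 rose and 10 fell with nutlin-3a, beside 2.38% of all genes that rose and 4.12% that fell. Their median change was 0.05. The matrix proteases split, with 1 of 9 that rose and 2 that fell (2 and 4 at an unadjusted p under 0.05 and with trend and robust moderation). Mmp9 had levels of 8.13 and 8.35 in FSL-1 + nutlin-3a against 7.53 and 7.34 in FSL-1, and rose by 0.80 (adjusted p = 0.0148). Mmp13 had 6.22 and 6.08 in FSL-1 + nutlin-3a against 7.76 and 7.88 in FSL-1, and fell by 1.67 (adjusted p = 0.000667). Ctsl fell by 0.91 (adjusted p = 0.00444), and Mmp14 differed by 0.30 (adjusted p = 0.248). Of 16 pump subunits 0 rose and 2 fell (0 and 5 at an unadjusted p under 0.05 and with trend and robust moderation): Atp6v0d2, with levels of 10.48 and 10.23 in FSL-1 + nutlin-3a against 11.11 and 11.23 in FSL-1, by 0.81 (adjusted p = 0.0131), and Atp6ap2, an accessory protein of the pump, by 0.58 (adjusted p = 0.0299). The median change of the subunits was -0.18.

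Ion transport genes gave 1 riser and 2 that fell of 12. Slc9b2 had levels of 6.60 and 6.84 in FSL-1 + nutlin-3a against 8.13 and 7.83 in FSL-1 and fell by 1.26 (adjusted p = 0.00594). Slc37a2 fell by 1.28 (adjusted p = 0.000938), and the lysosomal calcium channel gene Mcoln1 rose by 0.48 (adjusted p = 0.0477). Csf1 had levels of 6.25 and 6.22 in FSL-1 + nutlin-3a against 9.72 and 9.72 in FSL-1, a change of -3.48 (adjusted p = 0.000119). It was the 1 gene of the 8 in the RANKL and M-CSF axis that fell, and 0 rose (2 higher and 1 lower at an unadjusted p under 0.05 and with trend and robust moderation).

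Of the 8 repressors 2 rose and 2 fell (3 and 2 at an unadjusted p under 0.05 and with trend and robust moderation). Id3, which blocks helix-loop-helix factors, had levels of 7.51 and 8.74 in FSL-1 + nutlin-3a against 5.20 and 5.41 in FSL-1, a change of 2.82 (adjusted p = 0.00325). Id1 had 6.96 and 7.96 in FSL-1 + nutlin-3a against 5.38 and 5.24 in FSL-1, a change of 2.15 (adjusted p = 0.00514). The 2 FSL-1 + nutlin-3a arrays differed by about a log2 unit in both genes, yet lay far above FSL-1. Rbpj fell by 0.99 (adjusted p = 0.0155) and Tnfaip3 by 0.60 (adjusted p = 0.0262).

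Fos was the 1 transcription factor called of 16 (3 higher and 0 lower at an unadjusted p under 0.05) and rose by 0.92 (adjusted p = 0.0433). Of 13 ITAM and calcium signalling genes 2 rose and 0 fell (3 and 0 at an unadjusted p under 0.05 and with trend and robust moderation), Tyrobp, which encodes the adaptor DAP12, by 0.73 (adjusted p = 0.0105) and Nfam1, a receptor that activates NFAT, by 0.52 (adjusted p = 0.046). Adhesion genes rose in 2 of 17 and fell in 0 (5 and 2 at an unadjusted p under 0.05, 4 and 1 with trend and robust moderation): the integrin gene Itgav by 0.63 (adjusted p = 0.0295) and the ubiquitin ligase gene Cbl by 0.82 (adjusted p = 0.0289). Among 9 fusion genes the tetraspanin gene Cd9 fell by 0.92 (adjusted p = 0.00474). Dcstamp differed by -0.09 (adjusted p = 0.834) and Ocstamp by 0.01 (adjusted p = 0.974).

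Of the relatives 1 of 18 rose and 2 fell. Nfatc2 had levels of 7.63 and 7.73 in FSL-1 + nutlin-3a against 6.91 and 7.15 in FSL-1 and rose by 0.65 (adjusted p = 0.0475). Car13 fell by 0.53 (adjusted p = 0.0353) and Calcrl by 0.74 (adjusted p = 0.0222). Of 7 macrophage markers 2 fell with nutlin-3a, Cd14 and Fcgr1, while 3 of the 7 differed upwards and were not called. At an unadjusted p under 0.05 the counts were 1 and 3, and with trend and robust moderation 0 and 3. Itgam was lower too, at 11.44 and 11.28 in FSL-1 + nutlin-3a against 11.78 and 11.84 in FSL-1. Adgre1 had 12.32 and 12.24 against 12.46 and 12.39. Without Cd14 and Fcgr1, left out after their values were seen, the mean of the other 5 was 12.03 and 11.97 in FSL-1 + nutlin-3a against 11.94 and 12.00 in FSL-1, and the groups overlapped. As the 2 left out fell most, this does not show that the lower mean rested on them alone.

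Of the 22 calls named here among further genes and relatives, those of Csf1, Id3, Mmp13 and Slc37a2 held without each of the 6 arrays in turn. The other 18 were lost without some array, none with a change of sign. Without FSL-1 replicate 1 there were 15 lost (adjusted p up to 0.248), without FSL-1 replicate 2 there were 17 (up to 0.206), without FSL-1 + nutlin-3a replicate 1 there were 11 (up to 0.181) and without FSL-1 + nutlin-3a replicate 2 there were 12 (up to 0.176). Without either M-CSF array Mcoln1 (adjusted p = 0.0663) and Nfam1 (0.0572) were lost. Cd9 (-0.48, adjusted p = 0.0694) and Itgav (0.33, adjusted p = 0.156) were also lost when the probe sets of a gene were averaged. Nfatc2 (adjusted p = 0.0597), Mcoln1 (0.0669) and Nfam1 (0.0661) were also lost on centring each array.

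**Figure D4:**
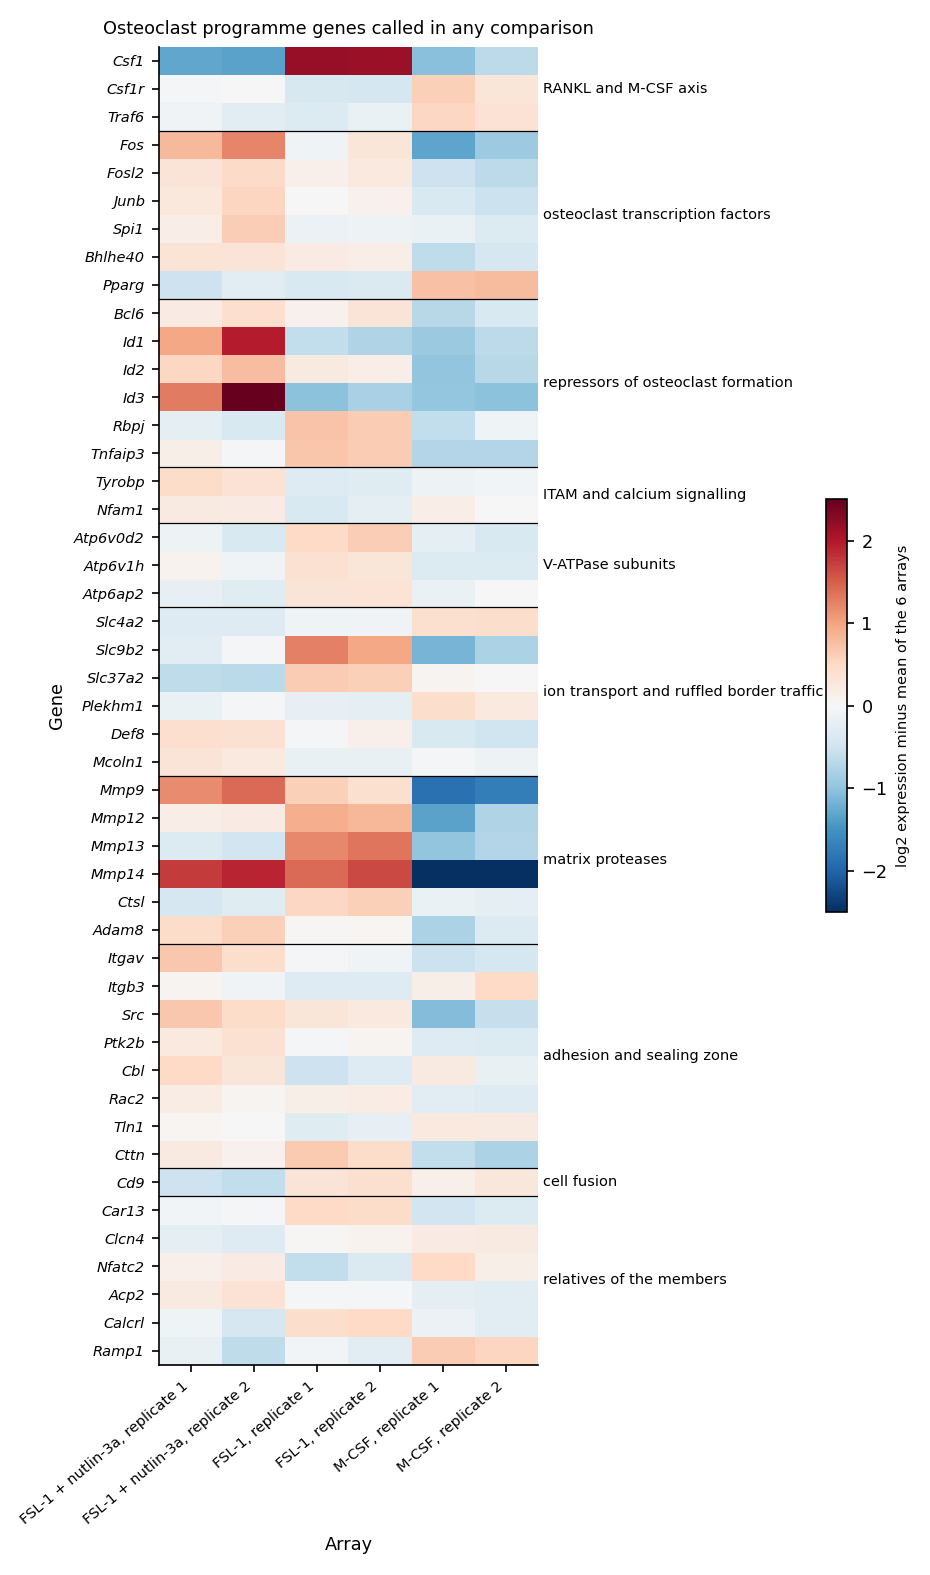
Colour gives the log2 level of each further osteoclast gene or relative called in any comparison (rows, by role) minus its mean over the 6 arrays (columns), with the colour scale ending at 2.5 in either direction. Csf1, Slc9b2 and Mmp13 are highest in the FSL-1 arrays, and Id1 and Id3 in the FSL-1 + nutlin-3a arrays.

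FSL-1 + nutlin-3a compared with M-CSF gives what of the programme stands above macrophages when both agents are present. Acp5 rose 6.54-fold and Tnfrsf11a 1.47-fold. Of the 10 genes, 2 rose and 0 fell, beside 9.51% of all genes called, 4.58% that rose and 4.94% that fell. The counts at an unadjusted p under 0.05 and with trend and robust moderation were both 4 and 0. Of all 22180 genes, 2650 rose and 2644 fell at that unadjusted p, and 1548 and 1789 with that moderation. The median change was 0.05, against 0.02 for all genes, and the groups did not overlap for 6 of the 10 genes, beside 51.5% of all genes. Both groups also enter the comparisons above.

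Acp5 averaged 7.81 ± 0.078 in FSL-1 + nutlin-3a and 5.11 ± 0.35 in M-CSF (SD, n = 2 each), a change of 2.71 (SE 0.168, limma adjusted p = 7.66e-05), called in all 15 alternative settings. Tnfrsf11a lay higher on both FSL-1 + nutlin-3a arrays than on either M-CSF array, by 0.55 (SE 0.133, limma adjusted p = 0.0389). That call was kept in 6 of 15 alternatives. It was lost without any 1 of the 6 arrays (changes of 0.44 to 0.67, adjusted p of 0.0563 to 0.187) and with the 2 compared groups alone (adjusted p = 0.0688). Ctsk was higher on both FSL-1 + nutlin-3a arrays too, but its difference of 0.70 (SE 0.189, 95% interval 0.26 to 1.13, adjusted p = 0.0595) was not called. It was called in 4 of 15 alternatives, among them without M-CSF replicate 2 (0.97, adjusted p = 0.0236).

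The other 7 genes were not called. Nfatc1 differed by -0.01 (adjusted p = 0.985), Clcn7 by -0.13 (0.546), Tcirg1 by -0.15 (0.511), Ostm1 by 0.34 (0.113), Calcr by 0.06 (0.792), Oscar by 0.04 (0.921) and Car2 by 0.01 (0.983). With 2 arrays a group these values do not show that the levels were the same. Ostm1 was called with trend and robust moderation (adjusted p = 0.0313).

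Of the 108 further genes 21 rose and 5 fell, beside 4.58% of all genes that rose and 4.94% that fell. Their median change was 0.08. Mmp14 rose by 5.19 (adjusted p = 5.23e-06), Mmp9 by 3.10 (adjusted p = 2.06e-05), Fos by 2.12 (adjusted p = 0.000719) and Src by 1.39 (adjusted p = 0.00224). Id3 rose by 2.90 (adjusted p = 0.00146) and Id1 by 2.27 (adjusted p = 0.00224), among 5 of 8 repressors that rose. The integrin gene Itgav had levels of 10.03 and 9.79 in FSL-1 + nutlin-3a against 8.82 and 8.90 in M-CSF and rose by 1.05 (adjusted p = 0.00197). Slc9b2 rose by 0.83 (adjusted p = 0.022), whereas Slc37a2 fell by 0.70 (adjusted p = 0.00656) and Slc4a2 by 0.74 (adjusted p = 0.00476). Csf1 differed by -0.47 (adjusted p = 0.0931). Of these 10 calls only that of Slc9b2 was lost without an array, namely without FSL-1 + nutlin-3a replicate 1 (adjusted p = 0.0533), without FSL-1 + nutlin-3a replicate 2 (0.116) or without M-CSF replicate 1 (0.122).

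Acp5 and Ctsk were the only 2 of the 10 genes whose level spanned more than 1 log2 unit over the 6 arrays, and the 3 genes of most similar profile were sought for each. Likeness was the root mean square difference of the log2 levels, each gene centred on its own mean, over these same 6 arrays. The genes nearest to Acp5 (span 3.01) were the growth factor receptor gene Met at 0.183, the lipid-binding protein gene Fabp7 at 0.193 and the elongation factor gene Ell2 at 0.213. Met had levels of 7.76 and 7.82 in FSL-1 + nutlin-3a, 7.14 and 7.37 in FSL-1, and 4.84 and 4.95 in M-CSF. Those nearest to Ctsk (span 2.38) were the lymphocyte activation antigen gene Cd69 at 0.111, the gap junction gene Gja1 at 0.139 and the myosin gene Myo1d at 0.156. Cd69 had levels of 5.40 and 5.23 in FSL-1 + nutlin-3a, 6.38 and 6.89 in FSL-1, and 4.55 and 4.85 in M-CSF. The Acp5 neighbours thus stayed high with nutlin-3a and the Ctsk neighbours did not, as the choice by likeness requires.

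**Figure D5:**
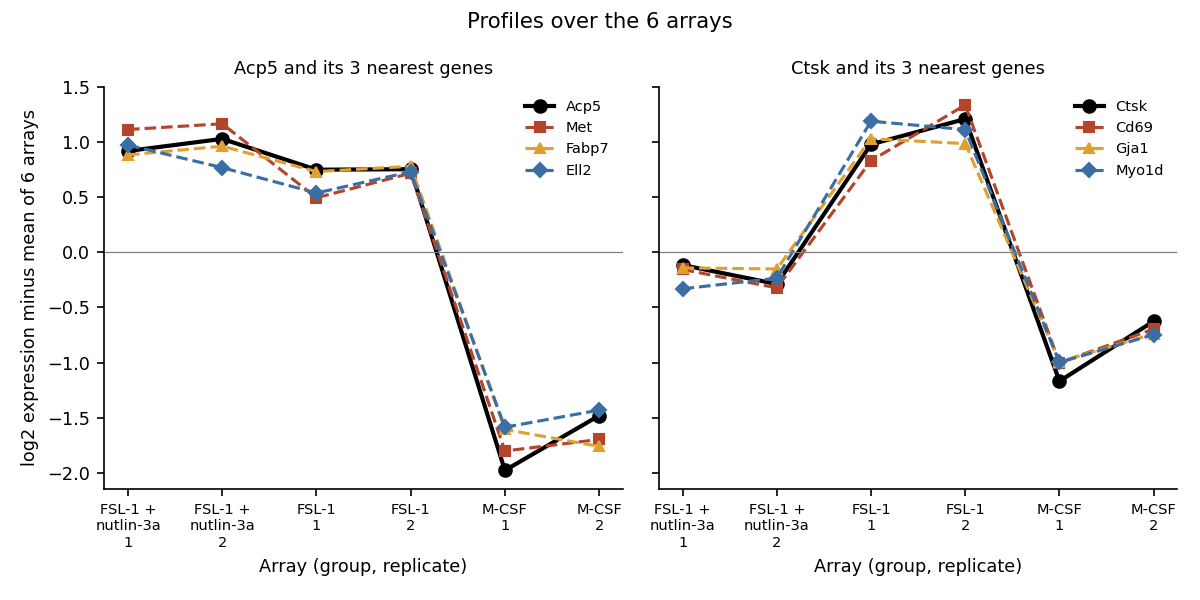
Log2 level minus the gene's mean over the 6 arrays (vertical axis) on each array (horizontal axis) for Acp5 and its 3 nearest genes, and for Ctsk and its 3 nearest genes. The Acp5 profiles stay high in the FSL-1 + nutlin-3a arrays, while the Ctsk profiles lie there between FSL-1 and M-CSF.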

How the data were processed

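Total RNA of sorted cells was amplified and biotin-labelled with NuGEN kits before hybridisation, per the labels. The authors deposited 1 log2 value for each probe set and array. The submitters' processing notes name RMA and Affymetrix Expression Console 1.4. As RMA gives all arrays the same distribution, a shift of most genes at once would not show. Array medians were 5.05 to 5.14. Of 34390 probe sets 23521 name 1 gene, which gave 22180 genes. In 1082 of them the brightest of several probe sets was used. The RefSeq table (GRCm38.p6) held the Entrez number of 23328 probe sets and changed 0 symbols. List genes outside these 22180 are not analysed here. No source used here gives the build of the annotation.

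The lmFit and eBayes functions of limma 3.58.1 (R 4.3.3) were run on all 6 arrays together (3 residual and 4.88 prior degrees of freedom), for 3 contrasts, with Benjamini-Hochberg adjustment over all genes and a threshold of 0.05. Groups and replicate numbers came from the labels. Deviations of arrays of the same number correlated at -0.188 to 0.0175 between groups. With 2 arrays a group this cannot decide whether samples were paired, and the fit reported holds no pairing term. The 10 genes and all gene lists were chosen with earlier results of these data known. Named were the 10 genes, a fixed set of pathway genes, up to 3 called genes of smallest p from each list and comparison, and the 3 genes nearest in profile to members spanning over 1 log2 unit. Not all genes that this rule allows are named. Alternatives were trend and robust moderation, a filter on dim genes, the mean of probe sets, median-centred arrays, a repeat of quantile normalization, the compared groups alone, the replicate block, a fold minimum of 1.5, array weights and dropping each array in turn, whose group then has 1 array assumed to vary like the others. A block with crossed M-CSF numbers was added after seeing the data. With 2 arrays a group, outlying samples were not sought. Promoter windows of 300 bases came from RefSeq.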

Additional observations from a re-analysis of the deposited data

How the results depend on the processing

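Pairs of counts give genes that rose and genes that fell. Trend and robust moderation gave as many calls or more in each count. The 10 genes then had 3 and 1 calls with FSL-1 against M-CSF, 2 and 2 with nutlin-3a against FSL-1 and 4 and 0 with both agents against M-CSF. The 108 further genes had 31 and 16, 18 and 16, and 33 and 17, and all genes called numbered 2744, 2658 and 3337. With nutlin-3a against FSL-1, 1 of the 10 genes rose on quantile normalization once more, with dim genes filtered out and with array weights, where 0 had risen in the fit reported. There 1 gene in place of 2 fell on quantile normalization once more, with the compared groups alone, with the replicate block and with the fold minimum of 1.5. With both agents against M-CSF, 1 of the 10 genes in place of 2 rose with the compared groups alone, the replicate block and the fold minimum. There 3 rose on quantile normalization once more and with dim genes filtered out. Of the 108 genes, 3 in place of 7 fell with FSL-1 on the compared groups alone and with the replicate block, 4 with the fold minimum, and 8 in place of 5 fell with both agents against M-CSF with dim genes filtered out.

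Whether the replicate numbers pair the samples is not known. The replicate block lowered the calls over all genes to 1167, 1005 and 1725. With the M-CSF numbers crossed they were 1278, 1148 and 1971, and the 10 genes had 2 and 0, 0 and 1, and 1 and 0.

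Leaving out 1 array at a time gave these ranges. With FSL-1 against M-CSF, 0 to 1 of the 10 genes fell, 9 to 19 of the 108 rose and 1 to 4 fell, and 451 to 1299 of all genes were called. With nutlin-3a against FSL-1, 0 to 1 of the 10 rose and 0 to 1 fell, 1 to 7 of the 108 rose and 4 to 11 fell, and 352 to 1212 of all genes were called. With both agents against M-CSF, 1 to 2 of the 10 rose and 1158 to 1529 of all genes were called. Signs turned only in values that were not called. With FSL-1 against M-CSF the ranges were -0.11 to 0.12 for Tnfrsf11a, -0.24 to 0.0641 for Oscar, -0.0115 to 0.0747 for Tcirg1, -0.12 to 0.34 for Dcstamp, -0.12 to 0.18 for Ocstamp, -0.0248 to 0.18 for Id3 and -0.0243 to 0.25 for Id1. With nutlin-3a against FSL-1 they were -0.0259 to 0.28 for Oscar, -0.32 to 0.14 for Dcstamp and -0.11 to 0.14 for Ocstamp. With both agents against M-CSF they were -0.11 to 0.19 for Oscar, -0.23 to 0.21 for Nfatc1 and -0.31 to 0.33 for Car2. On quantile normalization once more, FSL-1 against M-CSF gave -0.0313 for Tcirg1 and -0.000234 for Ocstamp, and both agents against M-CSF gave 0.0231 for Nfatc1 and -0.0252 for Car2. On centring each array, FSL-1 against M-CSF gave -0.0278 for Tnfrsf11a, -0.000722 for Tcirg1 and -0.00199 for Ocstamp, and both agents against M-CSF gave -0.0212 for Car2. The other probe set of Ostm1 gave -0.11 with FSL-1. The cause of these shifts was not tested. No detection calls were used, so signal over background is unknown for Calcr, Oscar, Car2 and Tnfsf11. It is also unknown for Dcstamp and Ocstamp and for the M-CSF levels of Acp5, Ctsk and Mmp9. These lay near or below the median level of all genes (5.51).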
